A study of Homo sapiens with 6 samples.

Results

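The RNA of DLD1 colorectal cancer cells in the library S-CAFs-w13 was compared with that in the library DLD1-W13CM, gene by gene. DLD1, an established line of human colorectal cancer, was used throughout, and both libraries were made from cells labelled WT. The labels' protocols describe DLD1 cells grown together with S-CAFs and DLD1 cells grown together with CAFs, in medium with 10% fetal bovine serum. CAFs are cancer-associated fibroblasts, and the series title speaks of senescent CAFs. S-CAFs-w13 carries the name of its co-culture. By elimination, DLD1-W13CM is read here as the culture with CAFs: its title neither says so nor explains the letters CM, so that the kind of fibroblast and the kind of culture cannot be told apart. The sources used here do not give whether the fibroblasts were kept apart from the DLD1 cells. In RNA from whole cultures, fewer cells of a type and less RNA per cell cannot be told apart. These are 2 of the 6 libraries of the series. The other libraries came from DLD1 cells with METTL1 knockdown (construct sh2) or a control construct (sh-NT). Each group held 1 library, so nothing below has a replicate check or a test, and each difference describes these libraries.

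Members were all genes whose mean over both libraries reached 1 FPKM, 14739 of the 21519 genes in the table. FPKM are fragments per kilobase of gene length, scaled by a library size. The size recovered for S-CAFs-w13, 6215547, lies below its summed reads, so that it was not simply their total. The difference of a gene is log2((FPKM + 1)/(FPKM + 1)), S-CAFs-w13 over DLD1-W13CM, and 2-fold is counted on this scale, which understates the change of low genes. Each fold printed is a ratio of FPKM without the added 1, pairs of FPKM values give DLD1-W13CM first, and ranges in parentheses are exact 95% counting intervals of the fold. The intervals rest on read numbers recovered from the FPKM values, which are the smallest that the values allow, so that each read number printed is a lower bound, and they cover counting error only. Recovered reads summed to at least 6428459 in S-CAFs-w13 and to at least 5873053 in DLD1-W13CM.

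A fibroblast beside a tumour cell sends it growth factors, cytokines and matrix, and a senescent fibroblast secretes more of these. In the secretory pathway of a cell, COPII coats carry new proteins from the endoplasmic reticulum to the Golgi and COPI coats carry proteins back. A growing cell makes ribosomes in the nucleolus, processes mRNA with splicing factors, and holds polyamines and iron. These are textbook roles, given as background to the groups of genes below. Whether these groups answer signals of fibroblasts was not tested.

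At least 2-fold higher in S-CAFs-w13 were 1338 genes (9.08%), and 1167 (7.92%) were at least 2-fold lower. The counting interval also excluded 2-fold for 689 (4.67%) and 523 (3.55%) of them. Of 10460 protein-coding genes, 731 (6.99%) were higher and 636 (6.08%) lower, with 566 (5.41%) and 427 (4.08%) whose interval excluded 2-fold. These shares are the background for every list below on the deposited scale, as is the median log2 ratio of protein-coding genes, 0.02. FPKM are relative, and the genes of the mitochondrial genome held 34.3% of the summed FPKM in S-CAFs-w13, against 44.5% in DLD1-W13CM. On the authors' scaling, a shift of -0.14, 988 genes were higher and 1545 lower. Without the mitochondrial genome, which moved the median of all genes by -0.17, 924 were higher and 1631 lower. Scaled over protein-coding genes of the nucleus 1089 were higher and 1409 lower. The share of higher genes among those past 2-fold was thus 53.4% as deposited and 39.0%, 36.2% and 43.6% under these scalings. Of the 10460 protein-coding genes, 507 were higher and 891 lower on the authors' scaling. Without the mitochondrial genome it was 452 and 966, and over protein-coding genes of the nucleus 561 and 802. Their medians were -0.13, -0.17 and -0.09. These are the background for list counts given under a scaling. A list is therefore read against the median of all genes, which moves by the same amount on the authors' scaling. Under the other scalings a list can move more than that median. Without the mitochondrial genome the median of the hnRNP list, for one, went from -0.31 to -0.54. The plot of all genes shows both sides at every level.

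**Figure D1:**
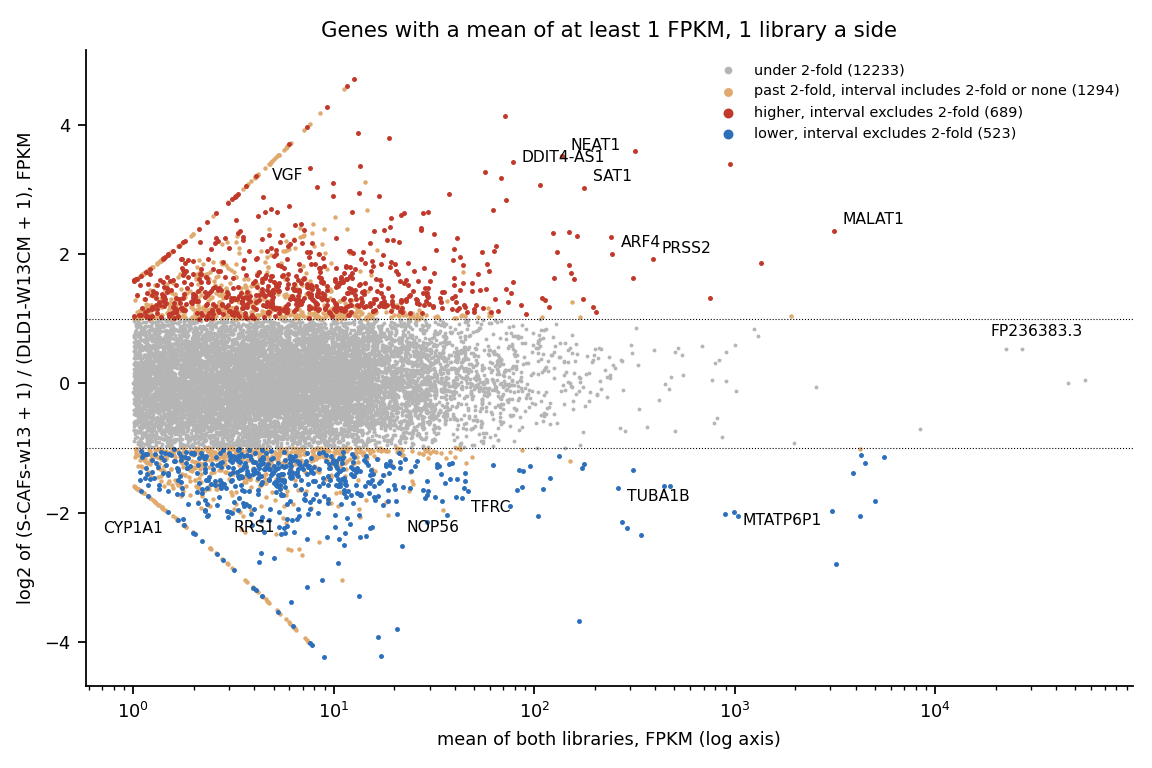
Each point is a kept gene, with the mean FPKM of both libraries on a log x axis and the log2((FPKM + 1)/(FPKM + 1)) difference on the y axis. Dotted lines mark 2-fold, and the 689 higher and 523 lower genes whose counting interval excludes 2-fold are red and blue. The 2 oblique lines of points at the left are genes listed at 0 in a library.

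The coats and cargo receptors of the early secretory pathway were the list of at least 14 members with the highest median. Of 48 genes, 47 had a row and 45 were kept; 13 were at least 2-fold higher and 0 lower, and the list's median log2 ratio was 0.67. The interval excluded 2-fold for 12 of the 13. On the authors' scaling 11 were higher and 1 lower, and without the mitochondrial genome 8 and 1. ARF4, a small GTPase of the Golgi, stood at 96.9 and 393 FPKM, 4.05-fold higher (3.83 to 4.28). GOLGA2, a tether on the cis-Golgi, stood at 6.53 and 28.8 FPKM, 4.41-fold higher (3.87 to 5.03). The inner COPII coat subunits that pick cargo came next: SEC24A at 14.7 and 45.9 FPKM and SEC24D at 6.49 and 20.7 FPKM, 3.13-fold and 3.18-fold higher. SEC31A, of the outer COPII coat, stood at 5.09 and 17.1 FPKM and SEC23A, the partner of SEC24, at 11.5 and 27.7 FPKM. COPI subunits followed, COPB1 at 25.9 and 71.6 FPKM, COPB2 at 26.4 and 62.4 FPKM and COPG1 at 41.3 and 90.6 FPKM. KDELR3, a receptor that returns resident proteins to the endoplasmic reticulum, stood at 14.6 and 37.4 FPKM.

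Not every member of this route was higher. TRAPPC3, a subunit of a tethering complex, had the lowest ratio of the list, at 11.99 and 5.84 FPKM, and TMED2, TMED10, SAR1A and SURF4 lay within 0.1 of 0 on the log2 scale. The medians of the steps before the coats lay near 0 and were below 0 under each of the 3 scalings. So was the median of all protein-coding genes, at -0.13, -0.17 and -0.09, and the medians of these steps stayed near it. Of 24 genes of signal recognition and the SEC61 translocon, 2 were higher and 0 lower with a median of 0.01, and 1 and 1 under each scaling; one was SRPRA, the receptor subunit for the signal recognition particle, at 38.7 and 117 FPKM, 3.02-fold higher (2.81 to 3.25). Of 36 genes of N-glycosylation, 0 were higher and 3 lower with a median of 0.03, MGAT2, MPDU1 and ALG1. The Rab GTPases, which direct vesicles, had 6 of 41 higher and 0 lower with a median of 0.29, and 6 and 3 on the authors' scaling. Those of regulated secretion were among the 6: RAB3B stood at 10.9 and 34.8 FPKM, RAB3A at 1.04 and 6.02 FPKM and RAB26 at 1.01 and 4.46 FPKM.

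The promoters of these genes were read because their members stood together; the motifs were chosen after the values were seen. RefSeq windows (GRCh38.p14) from 250 bases before to 50 bases after the gene's start were found for 8587 of the 10460 protein-coding genes, with the first listed start where there were several. The letters TGACGTGG, on either strand, form a core bound by the stress factors ATF6 and XBP1, among others. They were in 0.943% of all these promoters, in 11 of 563 genes at least 2-fold higher (1.95%) and in 2 of 507 lower (0.394%). Of 39 coat and cargo receptor genes with a promoter, 9 held them (23.1%): 6 of these 9 were at least 2-fold higher, with a median log2 ratio of 1.20, and of the 30 without them 5 were, with a median of 0.55. ARF1, COPA and SEC16A held the letters and were under 2-fold. The 6 past 2-fold are also counted among the 11 of the 563 higher genes, so that these shares overlap. Shown are the 6 past 2-fold, 5′ to 3′ on the gene's strand, with the motif or its reverse complement in capitals.
SEC24A: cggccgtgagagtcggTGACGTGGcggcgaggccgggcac
COPB1: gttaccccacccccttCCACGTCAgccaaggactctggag
KDELR3: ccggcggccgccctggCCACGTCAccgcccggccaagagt
COPB2: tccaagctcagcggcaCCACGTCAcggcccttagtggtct
SEC23A: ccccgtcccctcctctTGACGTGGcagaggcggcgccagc
GBF1: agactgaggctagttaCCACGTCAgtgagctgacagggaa
They lie at chr5:134648590-134648629 (SEC24A, plus strand), chr11:14499836-14499875 (COPB1, minus strand), chr22:38468034-38468073 (KDELR3, plus strand), chr3:139389820-139389859 (COPB2, minus strand), chr14:39103216-39103255 (SEC23A, minus strand) and chr10:102245521-102245560 (GBF1, plus strand). A longer pattern was also searched on either strand: CCAAT, 9 bases of any kind and CCACG. It was in 13 of the 8587 promoters and in 0 of the 39 coat and cargo receptor genes. Of the 563 higher genes 4 held it, and of the 507 lower genes 0. A match describes the letters and shows no binding.

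The genes that build ribosomes were the list of at least 14 members with the lowest median. All 48 were kept; 10 were at least 2-fold lower, 0 higher, 42 lay below 0, and the median was -0.50. The interval excluded 2-fold for 8 of the 10. On the authors' scaling and without the mitochondrial genome 16 were lower. RRS1, an assembly factor of the large subunit, stood at 10.1 and 1.603 FPKM, 6.29-fold lower (3.75 to 11.2). NOP56 and NOP58, core proteins of the box C/D particles that guide rRNA methylation, stood at 33.9 and 7.57 FPKM and at 42.5 and 12.9 FPKM, 4.47-fold (3.90 to 5.15) and 3.30-fold (2.88 to 3.80) lower. Their methyltransferase partner FBL did not reach 2-fold, at 27.8 and 20.1 FPKM. NCL, the abundant nucleolar protein nucleolin, stood at 127 and 48.9 FPKM, 2.59-fold lower (2.47 to 2.73), and DKC1, the pseudouridine synthase of the other guide particles, at 27.2 and 10.8 FPKM. MRTO4, UTP4, RRP7A, LTV1 and POLR1A, the largest subunit of RNA polymerase I, were the others. NPM1, the highest of the list, stood at 247.4 and 214 FPKM, 1.16-fold lower. NOB1, the nuclease of the last step of small subunit rRNA, had the highest ratio, at 32.6 and 59.2 FPKM.

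The box CACGTG, bound by MYC and by other basic helix-loop-helix factors, was in 10.6% of all promoters, in 9.06% of the higher genes and in 14.2% of the lower genes. It was in 16 of 41 ribosome biogenesis genes with a promoter (39.0%). The 16 had a median log2 ratio of -0.63, with 3 at least 2-fold lower, and the 25 without it a median of -0.48, with 5 lower; the box thus did not set apart the members past 2-fold. The 3 are shown with the box, which reads the same on both strands, in capitals.
MRTO4: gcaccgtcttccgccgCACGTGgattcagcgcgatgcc
UTP4: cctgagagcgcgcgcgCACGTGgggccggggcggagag
LTV1: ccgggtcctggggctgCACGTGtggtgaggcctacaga
They lie at chr1:19251803-19251840 (MRTO4, plus strand), chr16:69132617-69132654 (UTP4, plus strand) and chr6:143843350-143843387 (LTV1, plus strand). The letters TTTCCCGC or TTTGGCGC, which E2F factors bind, were in 3.95% of all promoters on either strand. They were in 2.31% of the higher genes and 7.30% of the lower genes, and in 7 of 46 DNA repair genes (15.2%). That share was not particular to DNA repair. The letters were also in 3 of 18 cleavage and polyadenylation genes (16.7%), 3 of 23 Mediator complex genes (13%) and 4 of 31 proteasome genes (12.9%). DNA repair genes with and without the letters were not compared.

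Splicing factors split within their family. Of 24 genes of the SR proteins and their kinases, 7 were at least 2-fold lower and 1 higher, with a median of -0.20 and 10 members above 0. SRSF6 stood at 63.0 and 17.9 FPKM, 3.53-fold lower (3.20 to 3.90). SRSF3 stood at 50.1 and 14.1 FPKM (3.55-fold lower), SRSF2 at 71.9 and 22.0 FPKM (3.27-fold) and SRSF7 at 43.8 and 14.8 FPKM (2.97-fold). These proteins bind exons and recruit the splicing machinery. SRSF8, TRA2B and SRSF10 were the other lower members; SRSF8 derives from a copy of SRSF2, and reads can be split between such copies. PNISR, an SR-related nuclear protein, was the higher one, at 9.77 and 23.8 FPKM, and SRRM2, a scaffold of nuclear speckles and the highest of the list, stood at 102 and 139 FPKM, 1.36-fold higher. Over the 21 members that reached a mean of 5 FPKM the median was -0.46.

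The hnRNP proteins, which coat nascent RNA, had 0 of 21 higher and 5 lower, with a median of -0.31 and 2 members above 0. HNRNPM stood at 29.7 and 7.71 FPKM, 3.85-fold lower (3.36 to 4.42), and HNRNPAB at 67.0 and 22.8 FPKM, 2.94-fold lower. Abundant members differed little: HNRNPA1 stood at 156 and 126 FPKM and HNRNPA2B1 at 97.3 and 83.4 FPKM. Of 50 DEAD and DEAH box helicases, which unwind RNA, 5 were lower and 0 higher with a median of -0.08, and DHX9, the highest of the 5, stood at 61.2 and 21.3 FPKM, 2.88-fold lower (2.65 to 3.13). Cleavage and polyadenylation factors had 2 of 19 lower, CSTF2T and CSTF3, and a median of -0.27. The nonsense-mediated decay factors had 0 of 14 past 2-fold in either direction and a median of 0.12. The RNA exosome with the CCR4-NOT deadenylase had 1 of 21 lower, EXOSC2, with a median of 0.09. On the authors' scaling these medians were -0.02 and -0.05, beside -0.13 for all protein-coding genes. Without the mitochondrial genome they were -0.08 and -0.12, beside -0.17.

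Of 36 kept genes matched as proteasome subunits, 0 were past 2-fold, 4 lay above 0 and the median was -0.25, with 2 lower on the authors' scaling and 4 without the mitochondrial genome; PSMC3 stood nearest the threshold, at 37.4 and 18.2 FPKM. PSMC3IP, matched by its name, is a recombination factor and no subunit. The chaperonin and prefoldin list, whose complexes fold actin and tubulin, had 0 of 14 past 2-fold, 2 above 0 and a median of -0.25. CCT2 stood at 77.0 and 42.8 FPKM and CCT4 at 179 and 173 FPKM. Of 19 tubulins and cofactors, 4 were lower and 1 higher with a median of -0.40, and 0 were higher under each of the 3 scalings. TUBA1B, the main alpha tubulin here, stood at 393 and 128 FPKM, 3.08-fold lower (2.95 to 3.21), TUBB4B at 248 and 99.5 FPKM and TUBA1C at 135 and 55.3 FPKM. Tubulin genes resemble each other closely, so that their counts are uncertain. The summed FPKM of the list was 718 in S-CAFs-w13, against 1405 in DLD1-W13CM.

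DNA repair genes had 10 of 53 at least 2-fold lower and 0 higher, with a median of -0.33 and 11 above 0. XRCC2 stood at 9.07 and 1.52 FPKM, 5.95-fold lower (4.34 to 8.31), BRCA2 at 6.53 and 1.02 FPKM, 6.39-fold lower (5.02 to 8.21), and BRCA1 at 9.07 and 2.04 FPKM, 4.45-fold lower (3.63 to 5.51). BLM, EXO1 and FANCG were also lower, as were UNG, which removes uracil from DNA, and the mismatch repair gene PMS2. XRCC6, the Ku70 end-binding protein and the highest of the list, stood at 129.9 and 94.4 FPKM.

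**Figure D2:**
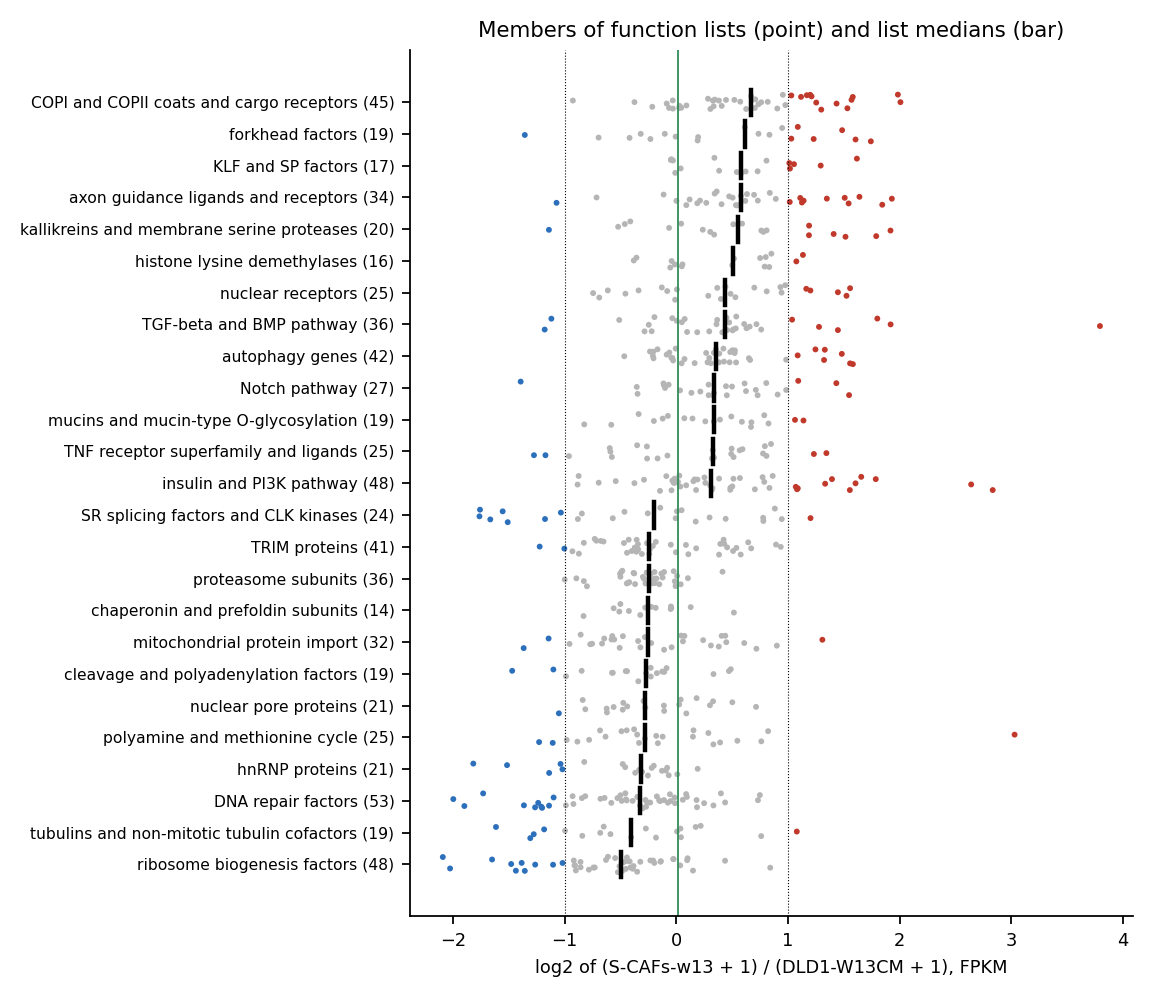
Each point is a kept member of a function list (number of members in parentheses), with its log2((FPKM + 1)/(FPKM + 1)) difference on the x axis; members past 2-fold are coloured, black bars are list medians and the green line is the median of all genes. Shown are the 12 lowest and 13 highest medians among function lists of at least 14 kept members, leaving out noncoding and marker lists, from -0.50 for ribosome biogenesis to 0.67 for the coats.

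Nutrient and growth factor signalling held more higher than lower members. Of 48 genes of the insulin and PI3K pathway, 11 were at least 2-fold higher and 0 lower, with a median of 0.31; on the authors' scaling 8 were higher and 2 lower. TXNIP, which binds thioredoxin and limits glucose uptake, stood at 16.9 and 127 FPKM, 7.49-fold higher (6.73 to 8.35). IGFBP4, a secreted binding protein that holds insulin-like growth factors, was 7.19-fold higher (5.65 to 9.27), at 5.45 and 39.2 FPKM, and IGFBP6 at 2.59 and 10.3 FPKM. RICTOR, the defining subunit of mTORC2, was 4.05-fold higher (3.598 to 4.57), at 4.06 and 16.5 FPKM, and PRKAB2, a subunit of the energy sensor AMPK, at 3.99 and 13.6 FPKM. FOXO3, a transcription factor that insulin signalling keeps out of the nucleus, stood at 7.95 and 26.2 FPKM, 3.30-fold higher (2.94 to 3.70). IRS2, SESN3, PIK3CD, DEPTOR and FOXO4 were the others.

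Autophagy genes had 7 of 42 at least 2-fold higher and 0 lower, with a median of 0.35 and 30 above 0; 6 were past 2-fold on the authors' scaling. They act at several steps of the pathway. ULK1, the kinase that starts autophagy, stood at 2.99 and 10.7 FPKM, 3.59-fold higher (2.98 to 4.35). VMP1, WIPI1 and ATG2A, which act as the membrane grows, stood at 12.7 and 39.9 FPKM, at 2.83 and 9.69 FPKM and at 2.41 and 7.56 FPKM. GABARAPL1, a membrane-bound tag of the ATG8 family, stood at 21.7 and 55.9 FPKM, while its relative MAP1LC3B stood at 13.3 and 12.5 FPKM. The cargo receptors NBR1 and BNIP3L stood at 9.82 and 24.7 FPKM and at 15.3 and 33.7 FPKM. Lysosomal hydrolases and membrane proteins went both ways, 3 of 44 higher and 2 lower with a median of 0.15. Without the mitochondrial genome it was 1 and 5 with a median of -0.06, beside -0.17 for all protein-coding genes. Among the lysosomal genes the protease CTSB stood at 22.2 and 58.1 FPKM, 2.62-fold higher.

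Transcription factor families differed. The KLF and SP factors had 5 of 17 higher and 0 lower with a median of 0.58, and 2 higher on the authors' scaling. KLF9, a target of glucocorticoid and thyroid hormone receptors, was 3.46-fold higher (2.92 to 4.13), at 5.21 and 18.1 FPKM, and KLF5, an intestinal epithelial factor and the highest of the list, at 81.5 and 126 FPKM. Forkhead factors had 6 of 19 higher and 1 lower with a median of 0.61, the lower one being FOXM1, a driver of cell division genes, at 35.3 and 13.2 FPKM. FOXA2 stood at 1.70 and 6.55 FPKM and FOXN2 at 11.3 and 27.7 FPKM. Of 25 nuclear receptors 5 were higher and 0 lower with a median of 0.44: RORA at 8.43 and 26.1 FPKM, NR4A1 at 2.21 and 8.42 FPKM, THRA at 4.01 and 12.7 FPKM, PPARD at 10.3 and 24.98 FPKM and NR1D1 at 25.6 and 58.5 FPKM. The 277 kept numbered zinc finger genes stood close to the background, 18 higher and 16 lower with a median of -0.07, and 15 and 25 on the authors' scaling. ZNF480 stood at 5.29 and 0.599 FPKM and ZNF184 at 1.97 and 9.28 FPKM, among the outermost on either side. Chromatin complexes were near it too, with 1 higher and 1 lower of 22 BAF subunits and 2 higher and 0 lower of 26 Polycomb genes, EZH1 and CBX8.

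Guidance molecules, which steer axons and also cells of epithelia, had 10 of 34 at least 2-fold higher and 1 lower, with a median of 0.58 and 31 above 0. Semaphorin ligands were among the higher: SEMA3B stood at 6.95 and 27.5 FPKM, 3.96-fold higher (3.45 to 4.57), SEMA7A at 0.879 and 4.85 FPKM, SEMA4B at 6.08 and 14.4 FPKM and SEMA6B at 0.143 and 3.35 FPKM, the last from 1 and 23 reads. Of the ephrins and their receptors, EFNB1 stood at 2.14 and 8.16 FPKM, EPHB6 at 4.36 and 14.2 FPKM and EPHA2, the highest of the list, at 38.2 and 83.7 FPKM. The semaphorin co-receptor NRP1 was the lower member, at 11.8 and 5.08 FPKM, 2.32-fold lower (2.05 to 2.63). On the authors' scaling 6 were higher and 1 lower. In the TGF-beta and BMP pathway 6 of 36 were higher and 2 lower with a median of 0.44. The receptors ACVR2B and TGFBR3 stood at 1.13 and 7.06 FPKM and at 7.99 and 30.3 FPKM, and the BMP-side members SMAD1 and ID3, both lower, at 4.97 and 1.75 FPKM and at 9.57 and 3.67 FPKM. In the Notch pathway 3 of 27 were higher and 1 lower with a median of 0.34, NOTCH1 itself at 1.53 and 6.40 FPKM, 4.17-fold higher (3.33 to 5.27), and its ligand JAG1 at 17.3 and 38.0 FPKM.

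Among extracellular proteases more members were higher than lower. Of 20 kallikreins and serine proteases 6 were higher and 1 lower, with a median of 0.55. PRSS2, a trypsinogen, was 3.80-fold higher (3.57 to 4.04), at 162 and 616 FPKM, and PRSS1 at 12.9 and 30.6 FPKM; their sequences are alike, and reads can be split between them. PRSS8, which activates epithelial sodium channels, stood at 12.1 and 44.2 FPKM, PRSS22 at 20.03 and 59.1 FPKM and KLK7 at 2.14 and 7.34 FPKM. Of 9 kept serpins, a family of protease inhibitors, 4 were higher and 1 lower. Their median of 0.87 lay above the 0.67 of the coats and cargo receptors, in a shorter list. SERPINA1 stood at 7.47 and 24.9 FPKM and SERPINB5 at 4.85 and 15.8 FPKM, both higher, and SERPINB8 at 4.62 and 1.29 FPKM, lower.

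Polyamine genes differed in direction along their pathway. SAT1, which acetylates spermidine and spermine for export or breakdown, was 8.35-fold higher (7.67 to 9.10), at 38.0 and 317 FPKM, and was the single higher member of 25. ODC1, the first enzyme of synthesis, stood at 54.9 and 22.9 FPKM, 2.40-fold lower (2.14 to 2.69), and SRM, spermidine synthase, at 30.3 and 13.6 FPKM, 2.24-fold lower (1.85 to 2.71). AMD1, which provides the aminopropyl groups, stood at 39.2 and 19.4 FPKM, 2.02-fold lower and just under 2-fold on the log2(FPKM + 1) scale. AZIN1, which frees ODC1 from its antizyme, stood at 23.3 and 40.1 FPKM, and the antizyme OAZ1 at 81.2 and 50.2 FPKM. The list's median was -0.28, and 4 were lower on the authors' scaling.

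Iron genes also split. TFRC, the receptor that brings iron into the cell, stood at 68.4 and 19.2 FPKM, 3.56-fold lower (3.31 to 3.83). FTL, the light chain of the iron store ferritin, stood at 429.9 and 1073 FPKM, 2.497-fold higher (2.38 to 2.62), while the heavy chain FTH1 stood at 1056 and 973 FPKM; ferritin genes have many processed pseudogenes, among which reads can be split. The mitochondrial iron importers mitoferrin 1 (SLC25A37) and mitoferrin 2 (SLC25A28) went opposite ways, at 21.8 and 66.0 FPKM and at 7.37 and 2.38 FPKM. Of 34 kept iron and haem genes 3 were higher and 4 lower.

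**Figure D3:**
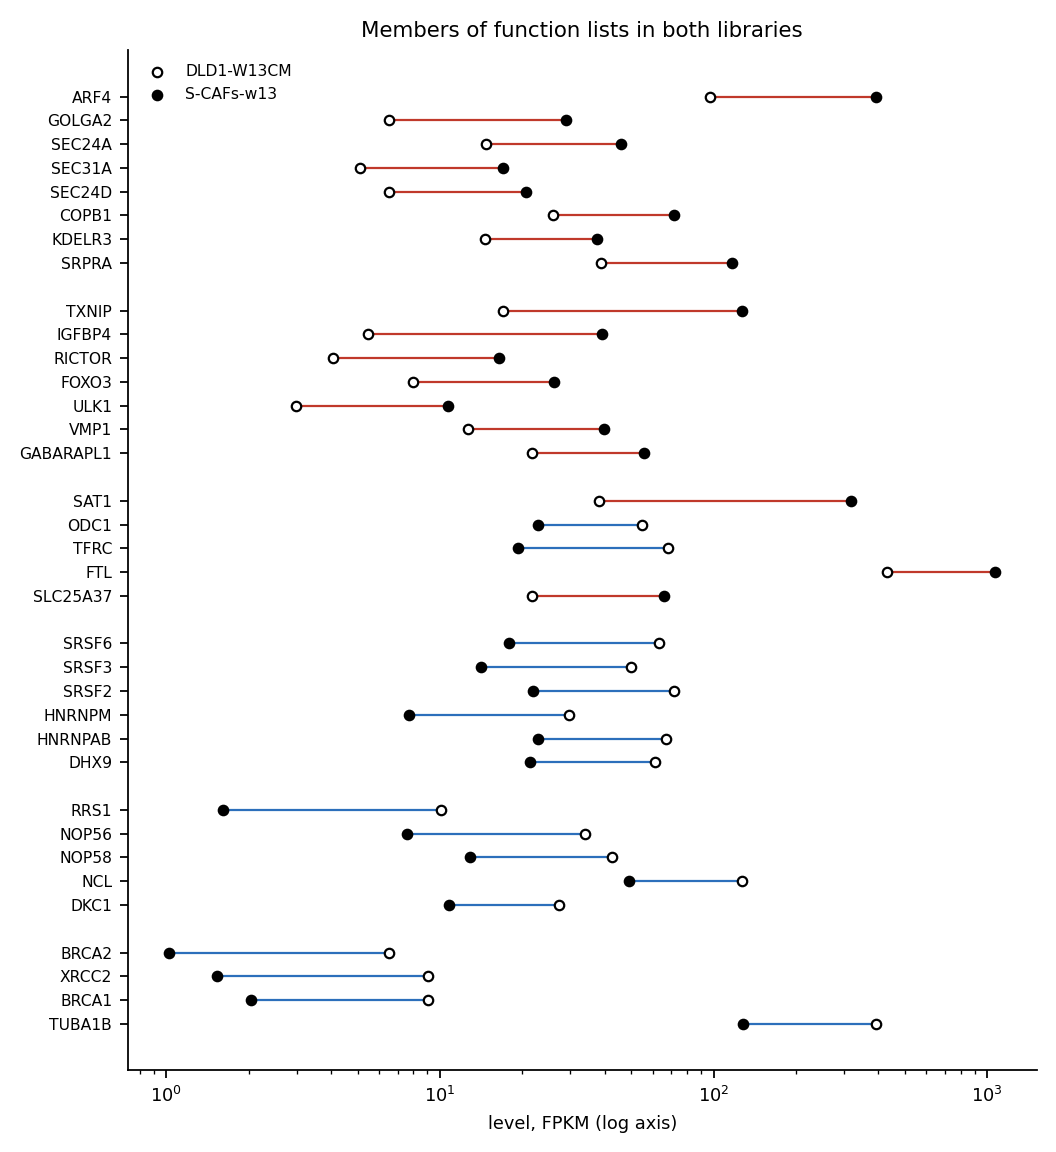
Open circles are DLD1-W13CM and filled circles S-CAFs-w13, with FPKM on a log x axis; red lines join genes that were higher and blue lines genes that were lower in S-CAFs-w13. From the top, the blocks hold secretory genes, growth signalling and autophagy genes, polyamine and iron genes, RNA-binding proteins, ribosome biogenesis genes, and DNA repair genes with TUBA1B.

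Other enzyme and transporter families stood near the background with a few outlying members. Of 173 solute carriers 14 were higher and 14 lower, with a median of -0.02, but 6 and 19 on the authors' scaling, 6 and 20 without the mitochondrial genome and 8 and 19 over protein-coding genes of the nucleus. SLC2A3, the glucose transporter GLUT3, stood at 4.84 and 33.5 FPKM, 6.92-fold higher (5.94 to 8.11), while SLC2A1, GLUT1, stood at 129 and 179 FPKM. SLC16A4, of the monocarboxylate transporter family, stood at 2.39 and 12.9 FPKM, and SLC1A4, which carries small neutral amino acids, at 16.5 and 4.82 FPKM. In the xenobiotic list, 2 of 36 were higher and 2 lower. CYP1A1 and CYP1B1, target genes of the aryl hydrocarbon receptor, were the lower: CYP1A1 stood at 3.49 and 0.0468 FPKM, from 76 reads and 1 read, and CYP1B1 at 10.9 and 4.76 FPKM. CYP2S1 stood at 5.11 and 22.1 FPKM. PTGS2, the inducible cyclooxygenase, stood at 8.38 and 1.16 FPKM, 7.23-fold lower (5.14 to 10.4), and the constitutive PTGS1 at 0.218 and 2.28 FPKM, from 4 and 41 reads. Of 31 genes of the BCL2 family and caspases 2 were higher, BMF and BBC3, which promote cell death, and 4 lower, BIRC5, CASP8, CASP6 and CASP10; without the mitochondrial genome it was 1 and 7. TCA cycle enzymes had 2 of 32 higher, IDH2 and SUCLG2, with 0 whose interval excluded 2-fold and 0 higher under any of the 3 scalings. Of fatty acid oxidation and peroxisome genes 1 of 43 was higher, ACSL4, and 1 lower, ACSL5.

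The remaining lists held few members past 2-fold. Of 57 myosins and actin regulators 5 were higher and 2 lower, and 4 and 5 on the authors' scaling, with the severing and capping proteins GSN and CAPG at 3.65 and 11.9 FPKM and at 2.78 and 10.4 FPKM. In sphingolipid metabolism 2 of 27 were higher and 0 lower (2 and 2 on the authors' scaling), ORMDL3, which restrains the first step of synthesis, at 5.00 and 15.99 FPKM, and UGCG, which makes glucosylceramide, at 7.35 and 20.9 FPKM. Among TNF family genes TNFSF9 was higher, at 3.89 and 11.4 FPKM, and TNFRSF9, its receptor, lower, at 3.14 and 0.712 FPKM. Of 16 histone lysine demethylases 2 were higher and 0 lower, KDM7A at 9.64 and 22.4 FPKM and KDM6B at 6.54 and 14.9 FPKM; on the authors' scaling and without the mitochondrial genome 0 were higher. Subunits of the vacuolar proton pump had 0 of 19 higher and 2 lower, and TRIM proteins 0 of 41 and 2, the latter 4 on the authors' scaling. F-box proteins had 1 of 43 higher and 0 lower, and 0 and 1 on that scaling.

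Among single genes outside these lists, VGF, the precursor of secreted neuropeptides, stood at 0.992 and 15.4 FPKM, 15.5-fold higher (9.52 to 27.1). YOD1, a deubiquitinase of endoplasmic reticulum quality control, was 8.41-fold higher (7.50 to 9.46), at 7.96 and 67.0 FPKM, and EMP1, an epithelial membrane protein, at 3.22 and 30.4 FPKM. EEF1A2, the elongation factor otherwise known from muscle and brain, stood at 7.31 and 51.5 FPKM, 7.04-fold higher (5.66 to 8.85). NDRG1, BHLHE40, OSBPL7, AMN1, KHDC4, GRB7 and MYEOV were also among the 30 highest ranks. On the lower side, ATF5, a transcription factor of the stress response, stood at 16.1 and 2.29 FPKM, 7.05-fold lower (5.09 to 9.99), and LRR1, a substrate receptor of a ubiquitin ligase, at 13.04 and 1.64 FPKM. PIGW, of GPI anchor synthesis, stood at 9.81 and 1.15 FPKM, HENMT1, which methylates small RNAs, at 10.0 and 1.33 FPKM, and ADM, the peptide adrenomedullin, at 7.66 and 1.01 FPKM. The 30 lowest ranks also held 5 clustered histone genes, of which HIST1H4B, HIST1H2AK, HIST1H2BL and HIST1H4L were listed at 0 in S-CAFs-w13. These rest on few reads: the 7 kept protein-coding genes listed at 0 there had a median of 11 and at most 29 reads in DLD1-W13CM.

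The balance of the directions differed by expression level. Of protein-coding genes between 1 and 3 FPKM, 158 of 2565 were higher and 126 lower. Between 3 and 10 FPKM it was 279 and 302 of 4434, between 10 and 30 FPKM 207 and 155 of 2601, between 30 and 100 FPKM 63 and 34 of 693, and between 100 and 300 FPKM 19 and 7 of 126. At 300 FPKM and above, 5 of 41 were higher and 12 lower; without the genes of the mitochondrial genome it was 5 of 28 and 1, the 1 being CXCL5. The median log2 ratio of protein-coding genes was -0.01 in the lowest band and 0.31 between 100 and 300 FPKM. On the deposited scale the highest nuclear genes past 2-fold were thus mostly higher in S-CAFs-w13, PRSS2 and FTL among them. On the lower side OLR1, a scavenger receptor, stood at 168 and 53.7 FPKM. The bands were not recounted under the 3 scalings. Over all kept genes past 2-fold, these lowered the share of higher genes from 53.4% to between 36.2% and 43.6%. In the lowest band KRT81 and KRT86, hair keratins, stood at 0.245 and 4.92 FPKM and at 0.132 and 4.17 FPKM, from 3 and 59 and from 2 and 62 reads; they are near-identical paralogs whose reads can be split.

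**Figure D4:**
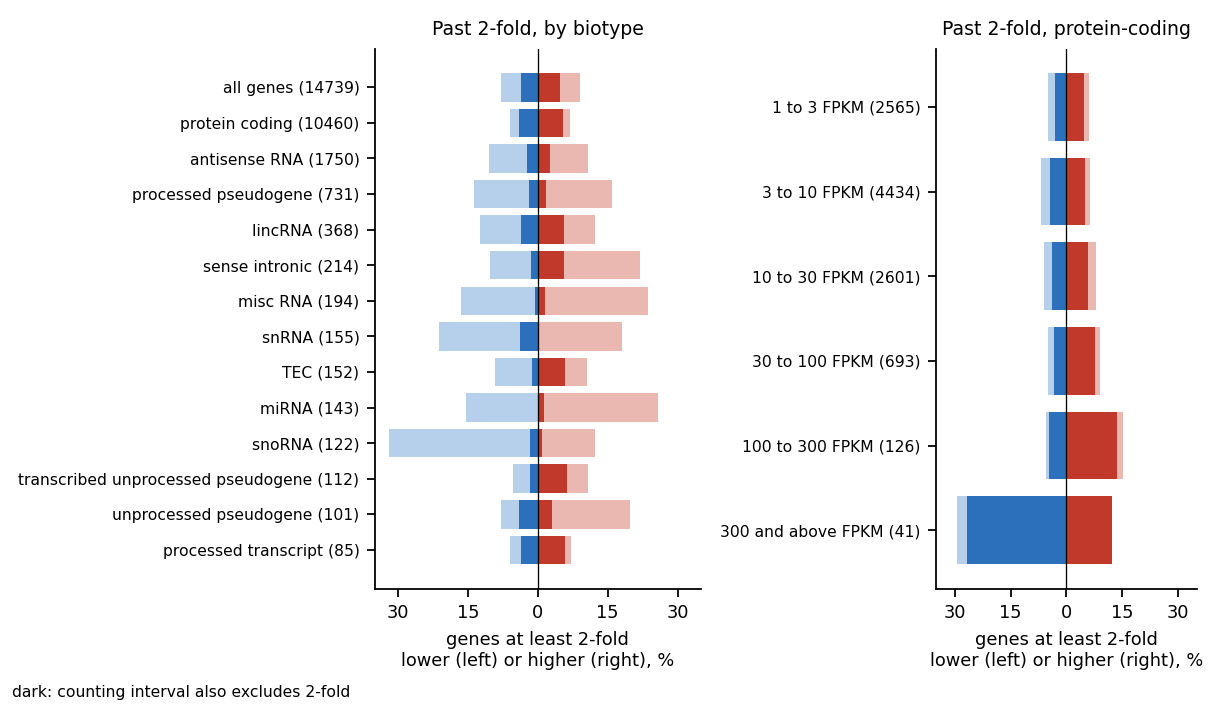
Bars give the percentage of genes at least 2-fold lower (left, blue) or higher (right, red) in S-CAFs-w13 for biotypes with at least 80 kept genes and, at the right, for protein-coding genes in bands of mean FPKM, with the number of genes in parentheses. Dark parts are genes whose counting interval also excludes 2-fold; in snoRNA, miRNA and misc RNA genes little of the bar is dark.

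The ratio varied with recovered gene length. These lengths are the smallest that the values allow and can be a fraction of the true one, so that some genes stand in too short a band; 1330 lengths were taken with the help of the knockdown table. Over protein-coding genes of the nucleus, the median log2 ratio was -0.08 up to 1000 bases, -0.11 from there to 2000, 0.03 from 4000 to 6000 and 0.11 from 8000 to 12000. Without clustered histone genes the shortest band had a median of -0.004. Within a mean of 10 to 100 FPKM the medians ran from -0.17 up to 1000 bases to 0.24 between 8000 and 12000. The share at least 2-fold lower was 8.69% between 1000 and 2000 bases and 3.18% between 8000 and 12000. The quartiles of neighbouring bands overlap broadly, as the plot by length shows. RNA quality values were not used here, and the part of length in the lists above was not tested.

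**Figure D5:**
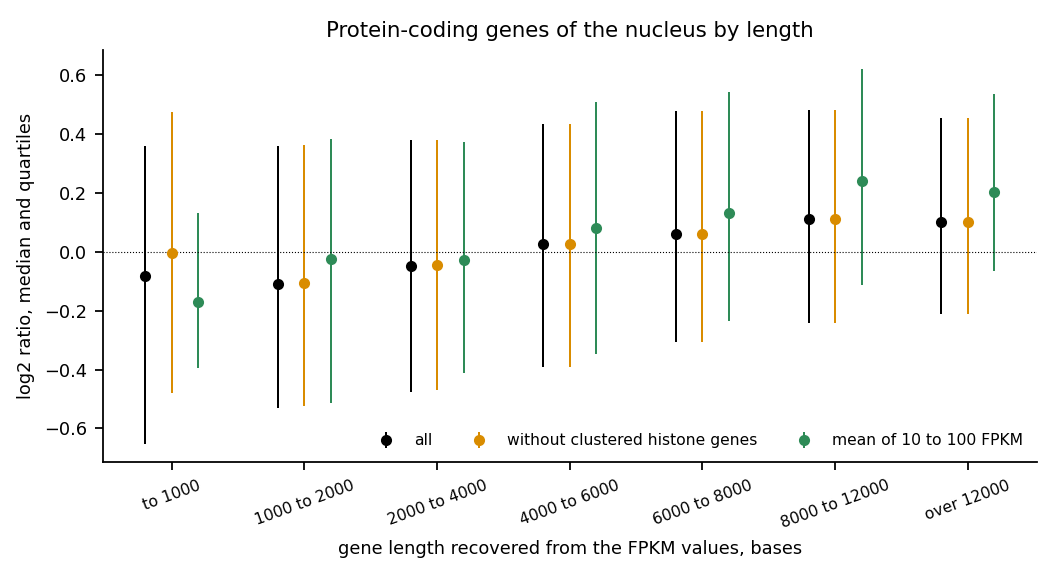
Points are the median log2((FPKM + 1)/(FPKM + 1)) difference of protein-coding genes of the nucleus in bands of the smallest gene length in bases that the FPKM values allow, and lines run from the first to the third quartile. Black is all genes, orange leaves out clustered histone genes and green keeps genes with a mean of 10 to 100 FPKM; all 3 series are highest at 8000 to 12000 bases.

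Other biotypes were read from fewer reads. Antisense RNA genes, 1750 of them, had 190 higher and 183 lower and a median of 0.02; the 368 lincRNA genes had 45 and 46, and processed pseudogenes 116 and 101 of 731. These shares exceed the 6.99% and 6.08% of protein-coding genes, but the interval excluded 2-fold for only 45 and 41 of the antisense genes, 21 and 13 of the lincRNA genes and 13 and 14 of the pseudogenes. Their median read numbers were 36, 28 and 12, against 383 in protein-coding genes. In all, 201 kept genes were listed at 0 in a library, 10 of them protein-coding.

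Sense intronic RNA genes, annotated within introns of other genes, had more higher than lower members: 47 of 214 were higher and 22 lower, with a median of 0.27, and 12 and 3 with an interval that excluded 2-fold. With the authors' scaling that median becomes smaller by 0.14. Unprocessed pseudogenes had 20 of 101 higher and 8 lower with a median of 0.30, and 3 and 4 by the interval. MTATP6P1, a nuclear copy of mitochondrial MT-ATP6, stood at 1578 and 399 FPKM, 3.96-fold lower (3.75 to 4.18), beside 6770 and 1637 FPKM for MT-ATP6; reads of such copies cannot be told apart with certainty. Of 122 snoRNA genes 15 were higher and 39 lower with a median of -0.34, but their median was 5 reads, and the interval excluded 2-fold for 1 and 2. Short RNAs of this kind are poorly caught by libraries for long RNA, and the direction was read no further.

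The highest lincRNA genes were FP236383.3 and FP236383.2, lincRNA entries of the same recovered length, at 22090 and 31941 FPKM and at 18420 and 26751 FPKM; their equal folds of 1.45 and 1.45 cannot be told apart from reads shared between copies. All lincRNA genes together held 17.0% of the summed FPKM in S-CAFs-w13, against 11.1% in DLD1-W13CM. FP236383.3, FP236383.2, MALAT1 and NEAT1 made up most of this, with 16.4% in S-CAFs-w13 against 10.5% in DLD1-W13CM. Of these, MALAT1 and NEAT1 held 1.39% against 0.262%, so that most of the rise lay in the FP236383 entries. Which RNA the reads of these entries come from was not tested. The other 1125 lincRNA genes summed to 2180 and 2260 FPKM, so that the rise was not one of lincRNA genes in general. Of 66 kept genes with LINC names 7 were higher and 10 lower (3 and 11 under each scaling), with a median of -0.28, which became 0.35 where a mean of 5 FPKM was required. LINC02086 stood at 15.9 and 6.21 FPKM and LINC00511 at 4.82 and 1.85 FPKM, both lower. Host genes of small nucleolar RNAs had 1 of 23 higher and 2 lower: SNHG8 was 4.17-fold higher (2.86 to 6.21), at 5.98 and 24.9 FPKM, and SNHG17 and DANCR were lower. Of 11 kept microRNA host genes 1 was higher, MIR222HG, the host of miR-221 and miR-222, at 3.003 and 9.94 FPKM, 3.31-fold higher (2.42 to 4.59). MIR221, counted as a hairpin, was listed at 0 in DLD1-W13CM and stood at 14.6 FPKM from 10 reads in S-CAFs-w13. Reads on the hairpin can come from the host transcript.

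Antisense-named genes were read beside the genes they are named after. Of 385 kept, 38 were higher and 33 lower with a median of 0.04. On the authors' scaling it was 31 and 46 with a median of -0.10, beside -0.12 for all kept genes. DDIT4-AS1 stood at 12.5 and 143 FPKM, 11.5-fold higher (8.93 to 14.96), beside 9.81 and 104 FPKM for DDIT4, and ACBD3-AS1 at 13.6 and 68.3 FPKM, beside 15.96 and 62.6 FPKM for ACBD3, a Golgi protein. SEC23A-AS1 stood at 1.58 and 10.3 FPKM from 5 and 32 reads, and BHLHE40-AS1 at 0.116 and 2.25 FPKM from 2 and 38. Over 342 pairs in which both genes were kept, Pearson's r of the log2 ratios was 0.57, a description across pairs that share the 2 libraries. In 237 of the 342 pairs both log2 ratios had the same sign. Of 36 pairs with the antisense gene at least 2-fold higher, the named gene lay above 0 in 32 and was itself at least 2-fold higher in 9. Of 30 with the antisense gene lower, the named gene lay below 0 in 22 and was itself at least 2-fold lower in 5. Over 28 pairs of an intronic transcript and its host, r was -0.15. The sources used here do not give whether counting used the strand, so that reads of a gene and of its antisense partner cannot be told apart.

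The cell type of both libraries was read from marker genes. Of 17 colon epithelial markers 16 had a row and 15 were kept. Of the 15, 3 were at least 2-fold higher, 1 was at least 2-fold lower and 11 lay above 0. The 16 summed to 3371 FPKM in S-CAFs-w13, against 2186 FPKM in DLD1-W13CM, and KRT18 alone stood at 892 and 1593 FPKM. Of 25 fibroblast markers, 13 had a row and 3 were kept, FN1, ACTA2 and S100A4. The 13 summed to 11.6 and 14.3 FPKM, and DCN, LUM, COL1A2, COL3A1, PDGFRA and FAP were among the 12 with no row. Of the 10 endothelial and 15 leukocyte markers 1 each was kept, ESAM and CD14, and the 6 and 5 with a row summed to 1.83 and 2.41 FPKM and to 2.86 and 2.82 FPKM. Below the minimum, PDGFRB stood at 0.0221 and 0.564 FPKM (1 and 25 reads), COL6A1 at 0.0295 and 0.331 FPKM (1 and 11 reads) and COL1A1 at 0.0482 and 0.229 FPKM (3 and 14 reads). These were named after their values were seen, and COL5A2 and COL5A1 had the lower level in S-CAFs-w13. Of the 13 markers 9 lay above 0 on the log2 scale and 0 were past 2-fold. Of the 3 kept, S100A4 had the higher level in S-CAFs-w13, at 4.77 and 7.53 FPKM, and FN1 and ACTA2 the lower, at 3.12 and 1.71 FPKM and at 1.80 and 1.51 FPKM. IGFBP4 is also made by fibroblasts; the part of fibroblast RNA in its difference was not tested.

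The authors' deposited table gives each gene a log2 fold change and an adjusted p of its own. In it 1730 genes had an adjusted p under 0.05 and a log2 fold change over 1, and 2601 one under -1. Of the kept genes at least 2-fold higher here, 1085 of 1338 had such an adjusted p in the authors' deposited table, and of those lower 1007 of 1167. With 1 library a side these p-values cannot cover variation between cultures.

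The knockdown of METTL1, an m7G methyltransferase, shares no library with this comparison. METTL1 stood at 5.80 FPKM in the control input and 3.28 FPKM in the knockdown input, and at 4.82 and 1.78 FPKM in the libraries above. Of 7945 genes kept in both tables, 23 (0.289%) were at least 2-fold higher and 35 (0.441%) lower in the knockdown, and 480 (6.04%) higher and 541 (6.81%) lower in S-CAFs-w13. Lower in both were 12 genes, 2.22% of the 541 lower in S-CAFs-w13 and 34.3% of the 35. They were the chemokine genes CXCL1, CXCL2, CXCL5, CXCL8 and CCL20, the acute-phase gene SAA1, the protease inhibitor PI3, the noncoding genes AC040169.1, AL139035.1 and RNU2-63P, PDZK1IP1 and ZC3H12A. ZC3H12A, a nuclease that degrades inflammatory mRNAs, stood at 18.4 and 5.10 FPKM here and at 38.4 and 14.5 FPKM in control and knockdown. Higher in both were LGALS1 and GLUD1P3, 0.417% of the 480 and 8.70% of the 23. Lower in S-CAFs-w13 and higher in the knockdown were 6 genes, among them FOS and C6orf15, 1.11% of the 541 and 26.1% of the 23, and 1 gene was the reverse. Across the 7945 genes Pearson's r between the differences was 0.08.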

How the data were processed

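The deposited FPKM values of DLD1-W13CM and S-CAFs-w13 were read from the authors' table of 21519 genes. Per the submitters' processing notes the tools included cutadapt 2.5, HISAT2 2.1.0, featureCounts 1.6.3 and DESeq2, and the builds named were GRCh38, hg38 and GRCm38; which step used which build is not given there. The authors' table also holds a log2 fold change and a p-value with its adjusted value for each gene, made from 1 library a side. No count table was used. The authors' knockdown table does not name its unit, and its values were taken as FPKM.

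Genes whose mean reached 1 FPKM were kept, 1 FPKM was added, and log2 ratios were taken; 2-fold is an absolute log2 ratio of at least 1. With 1 library a side nothing was tested. Read numbers were recovered as the smallest whole numbers whose ratio gives a gene's FPKM ratio, for 20806 of 20806 genes above 0 in both libraries (tolerance 1e-13), with effective library sizes of 6337932 and 6215547. The 713 genes listed at 0 in 1 library took their reads from the authors' log2 fold change, in which 0.5 read stands for 0. Intervals are exact binomial (Clopper-Pearson, 95%) and cover counting error only.

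Members, the 63 function lists, the 4 marker lists and the motifs were chosen with earlier results of these data known. Named are the 30 highest and lowest protein-coding ranks, the 10 genes of highest mean, the 5 outermost genes on either side of each biotype and band, and of each list up to 6 members past 2-fold in each direction and the highest member; other members named were chosen after their values were seen. Rescaled values kept the mean FPKM total of both libraries, so that the added 1 FPKM kept its size. Python 3.11.15, pandas 2.3.3 and scipy 1.17.1 were used, and the steps were tested on simulated data. Some genes are not reported here.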

Additional observations from a re-analysis of the deposited data

How the results depend on the processing

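The 1338 higher genes became 1939 with 0.1 FPKM added, 362 with 5 FPKM added, 639 with a mean of at least 5 FPKM required and 689 where the counting interval had to exclude 2-fold. The 1167 lower genes became 1777 with 0.1 FPKM added, 282 with 5 FPKM added, 539 with the higher minimum and 523 by the interval. Of 567 genes named by the rule, 485 were past 2-fold. Of these, under 2-fold were 38 on the authors' scaling, 48 without the mitochondrial genome, 28 scaled over protein-coding genes of the nucleus and 234 with 5 FPKM added. With a mean of at least 5 FPKM required, 295 of the 485 remained in the set. No paired analysis was possible because each group held 1 library. For the same reason no library could be left out. Low read numbers limit the short noncoding genes, whose medians were 5 reads in snoRNA, miRNA, snRNA and misc RNA genes.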
